A study of Mus musculus with 9 samples.

Results

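The genes Entpd1, Nt5e, Il10, Ebi3, Fgl2, Penk and Ecm1 encode ectoenzymes and secreted mediators linked to suppression by regulatory T (Treg) cells. They and the lists of related genes below were chosen by name, with earlier results of these data known. Counts of called or non-overlapping genes among them are therefore descriptions only. All 7 named genes were found among the 13698 genes of the deposited table. The RNA-seq data comprise 9 libraries of sorted mouse Treg cells (spleen with lymph node), 3 per group, from mice labelled C56Bl6/129 mix; the sources used here give no ages. The deficient cells (genotype LRFffThpokff Foxp3 Cre-YFP/X, sorted as YFP+MHCII-) came from female mice with floxed alleles of Zbtb7a and Zbtb7b, the genes of the transcription factors LRF and Thpok, and with a Foxp3 allele that makes Cre and YFP. The genetic controls (WT Foxp3 Cre-YFP/X, YFP+MHCII-) carried that Foxp3 allele with intact Thpok and LRF genes and came from 3 other female mice. The animal controls (YFP-MHCII-CD25hi) came from the same 3 mice as the deficient cells, carried the floxed alleles too, but had the other, unmodified Foxp3 allele in use and so retained LRF and Thpok. Foxp3 lies on the X chromosome and drives the Cre, so deletion is limited to cells that have switched on the modified allele, and a female carrier holds both kinds of Treg cell.

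Treg cells restrain other lymphocytes by contact, by secreted cytokines and by changing small molecules around them. In the adenosine route, CD39 (Entpd1) removes phosphates from extracellular ATP and ADP, and CD73 (Nt5e) turns the resulting AMP into adenosine, which slows T cells through a receptor encoded by Adora2a. The secreted route includes IL-10 (Il10), the Ebi3 chain that IL-27 and IL-35 share, the fibrinogen-like protein FGL2 (Fgl2), the enkephalin precursor proenkephalin (Penk) and extracellular matrix protein 1 (Ecm1).

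Of the 7 genes, Nt5e fell and Ecm1 rose in deficient cells against both kinds of control, and the other 5 did not pass the test in any comparison. Nt5e (chromosome 9, 88327197 to 88372092, plus strand) and Ecm1 (chromosome 3, 95734147 to 95739569, minus strand) are shown first by their promoters, since they carry the called differences. The windows are the 300 bases around the RefSeq start, most of them before it (GRCm38.p6), for Nt5e at chr9:88327359-88327658 on the plus strand and for Ecm1 at chr3:95739520-95739819 on the minus strand. They are written 5′ to 3′ along the gene, with capitals on letters that match GACCC, the core of LRF sites, or its reverse complement.
Nt5e: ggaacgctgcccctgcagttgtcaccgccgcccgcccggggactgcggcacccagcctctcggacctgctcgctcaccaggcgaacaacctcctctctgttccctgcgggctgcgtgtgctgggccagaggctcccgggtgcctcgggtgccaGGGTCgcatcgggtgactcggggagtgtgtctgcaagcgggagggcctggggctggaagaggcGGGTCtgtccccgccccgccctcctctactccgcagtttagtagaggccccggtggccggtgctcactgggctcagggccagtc
Ecm1: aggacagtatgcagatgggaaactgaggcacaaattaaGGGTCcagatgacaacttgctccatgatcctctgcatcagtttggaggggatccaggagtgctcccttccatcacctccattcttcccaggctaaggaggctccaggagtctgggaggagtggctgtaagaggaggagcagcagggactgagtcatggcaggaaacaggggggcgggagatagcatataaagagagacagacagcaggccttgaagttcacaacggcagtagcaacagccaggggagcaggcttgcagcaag

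The Nt5e window held 2 matches to GACCC, both on the opposite strand, at bases -97 to -93 and -34 to -30 counted from the RefSeq start site. That window lies inside the Nt5e gene as placed above, which begins before it at 88327197, so the annotated starts differ. The Ecm1 window spans the gene start given above. The Ecm1 window held 1, also on the opposite strand, at bases -212 to -208. Of 32851 promoter windows of the same length, 43.9% held at least 1 match on either strand and 13.8% held 2 or more, so such matches are common. They were not limited to called genes: of 2 windows of Entpd1, 1 held 2 matches and the other 1, the Fgl2 window held 1 and the Ebi3 window 0. Neither window held TGTGGT, the letters of Runx sites (in 16.8% of all windows and in 1 of the Entpd1 windows), or TGTTTAC, those of forkhead sites (in 3.65%). The Nt5e window was richer in G and C (71.0%) than the Ecm1 window (54.7%) and the median window (52.7%).

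Levels are given as CPM, counts scaled to library size, read from the authors' log2 values, whose shared lowest and highest values and near-equal sums are those of quantile normalization, in which every library is forced to the same distribution. Read totals cannot be read from such values, so counting intervals could not be set. The lowest value, 0.00457 CPM, was shared by between 8.0% and 11.4% of genes in each library. Differences are log2 fold changes ± SE from limma, with 3 libraries against 3 and Benjamini-Hochberg adjustment over all 13698 genes, and a gene was called at an adjusted p under 0.05. As a check of the labels, Zbtb7b measured between 0.147 and 0.366 CPM in deficient libraries, against 92.1 to 149 CPM in genetic and 76.9 to 106 CPM in animal controls. Zbtb7a averaged 89.5 ± 12.6 CPM in deficient cells, 90.3 ± 21.0 CPM in genetic controls and 112 ± 19.3 CPM in animal controls (SD, n = 3 each); the sources used here do not say which part of it is deleted, so this value checks nothing. Of the Treg markers, Il2ra, Ikzf2, Ctla4, Tnfrsf18, Tnfrsf4, Cd4 and Cd3e were at 36.6 CPM or more in all 9 libraries, while Foxp3 measured 24.8 to 38.1 CPM in the 6 YFP-positive libraries and 754 to 999.7 CPM in the animal controls. Cd3e was higher in every deficient library (1197 to 1307 CPM) than in every genetic control (824 to 971 CPM) and overlapped the animal controls. Ikzf2 and Tnfrsf18 were wholly lower against animal controls only, and Ctla4 overlapped both control groups. Cd4, Tnfrsf4 and Il2ra were lower in every deficient library than in every control library. Of all genes, 7.28% were wholly lower against genetic and 8.10% against animal controls, and 8.44% were wholly higher against genetic controls. Cd4 measured 329 to 381 CPM in deficient libraries, against 678 to 1026 CPM in genetic and 820 to 988 CPM in animal controls. Tnfrsf4 measured 305 to 378 CPM in deficient libraries, against 532 to 924 CPM in genetic and 741 to 797.8 CPM in animal controls, and Il2ra 416 to 551 CPM in deficient libraries, against 584 to 788 CPM in genetic and 738 to 800.4 CPM in animal controls. Their part in the results on the 7 genes was not tested. The comparison with animal controls thus also differs in Foxp3 transcript level, Foxp3 allele and sorting gate, which cannot be told apart from the loss of the factors there.

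**Figure D1:**
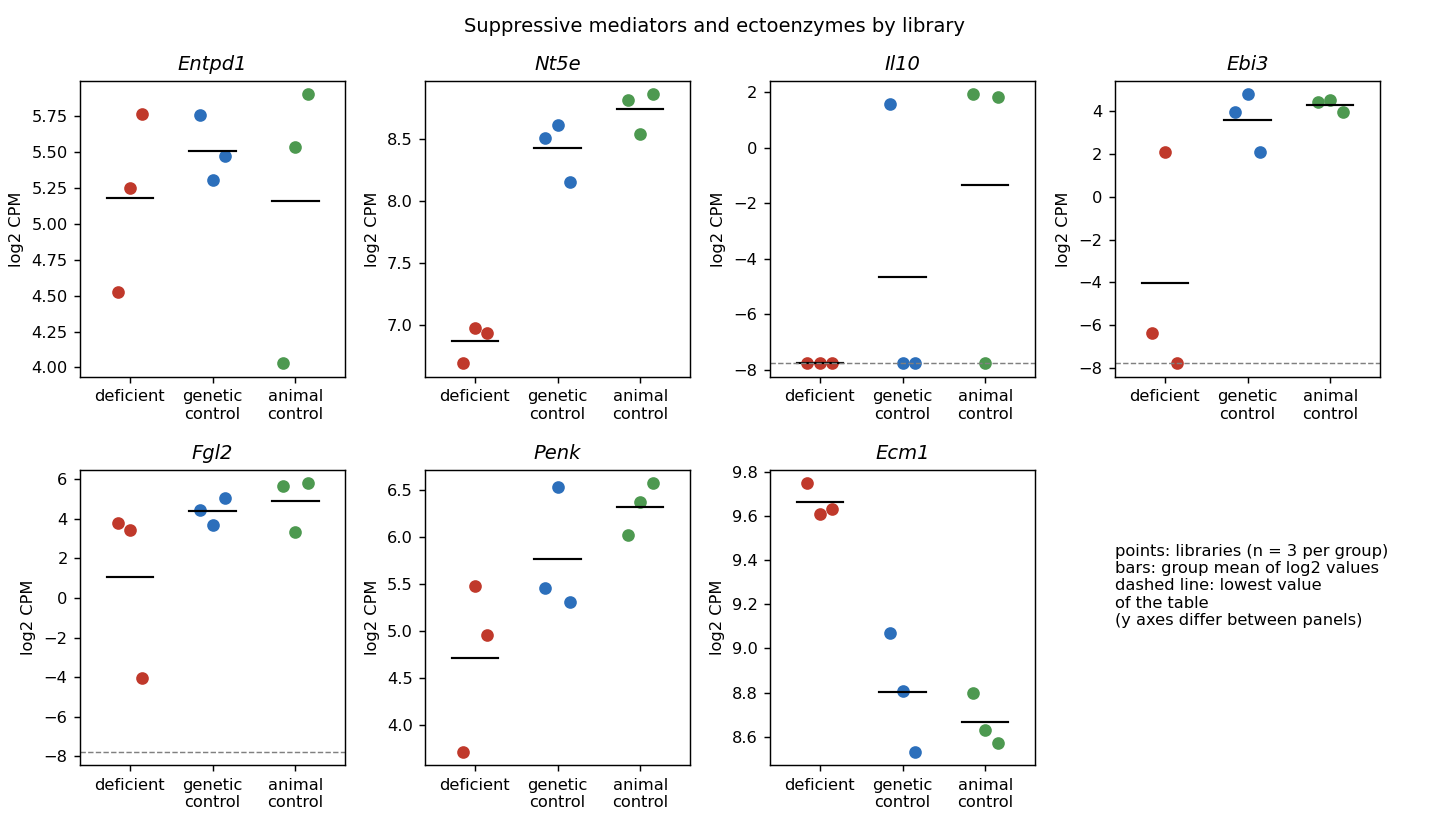
Log2 CPM (y axis) of the 7 genes in each library (points) of the deficient, genetic control and animal control groups (x axis), with a bar at the group mean of 3 libraries and a dashed line at the lowest value of the table. Nt5e lies lowest and Ecm1 highest in the 3 deficient libraries without overlap with either control group, while Il10 lies on the dashed line in 6 of the 9 libraries.

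Of the ectoenzymes of the adenosine route, Nt5e was called and Entpd1 was not. Their changes were not tested against each other. Nt5e measured 104, 126 and 123 CPM in deficient cells of mice 142114, 232614 and 432614, against 365, 391.9 and 284 CPM in genetic controls 124, 8619 and 8800 and 450.5, 373 and 465 CPM in animal controls 142114, 232614 and 432614. The highest deficient library lay below the lowest control library, and the 2 control groups overlapped. Nt5e fell by 1.56 ± 0.17 on the log2 scale against the genetic controls (adjusted p = 0.00323, fold change 0.34) and by 1.87 ± 0.17 against the animal controls (adjusted p = 9.25e-04, fold change 0.27). Over all genes, 0.869% were called against the genetic controls (0.533% lower, 0.336% higher) and 0.891% against the animal controls (0.584% lower, 0.307% higher). By p-value Nt5e ranked 16 of 13698 genes against genetic controls and 10 against animal controls. In bulk RNA, fewer cells that express Nt5e and less Nt5e RNA per cell cannot be told apart.

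In order of mean level, Nt5e was lowest in deficient cells (117 ± 12.1 CPM), followed by genetic controls (347 ± 56.0 CPM) and animal controls (429 ± 49.4 CPM; SD, n = 3 each). The control groups did not differ beyond their spread (genetic over animal controls -0.31 ± 0.17, adjusted p = 0.790). Within each mouse the deficient cells lay below the animal control cells, with log2 differences of -2.12, -1.56 and -1.92 for mice 142114, 232614 and 432614. The call against animal controls held in all 18 alternative settings and against genetic controls in 17 of 18, the exception being limma without a mean-variance trend (adjusted p = 0.0509).

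Entpd1 (chromosome 19, 40612366 to 40741602, plus strand), the step before Nt5e in the route, measured 23.0, 38.1 and 54.3 CPM in deficient cells of mice 142114, 232614 and 432614. Its values were 54.0, 39.5 and 44.4 CPM in genetic controls 124, 8619 and 8800, and 16.3, 46.4 and 59.7 CPM in animal controls 142114, 232614 and 432614. The 3 groups overlapped throughout, and mouse 142114 gave the lowest library in both groups of cells drawn from the shared mice. The log2 differences were -0.33 ± 0.52 against genetic controls (95% interval -1.48 to 0.82, adjusted p = 0.883) and 0.02 ± 0.52 against animal controls (95% interval -1.13 to 1.18, adjusted p = 0.9999). These intervals leave room for a change of more than 1 log2 unit in either direction against the animal controls, and so do not show equal levels. Without animal control 142114 the difference from animal controls was -0.54 (adjusted p = 0.692).

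**Figure D2:**
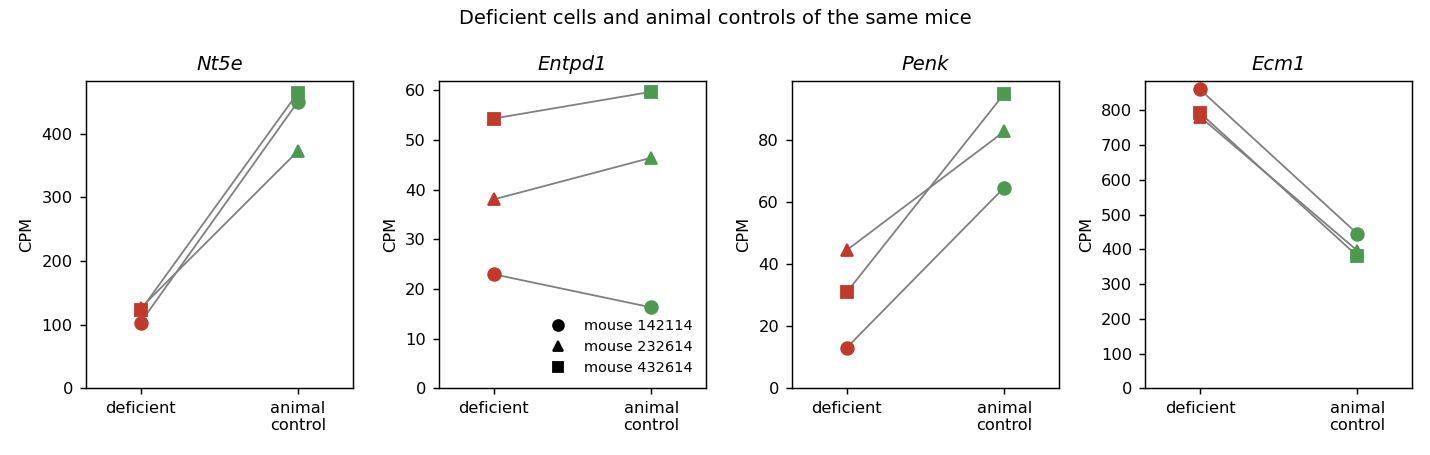
CPM (y axis, from 0) of Nt5e, Entpd1, Penk and Ecm1 in deficient cells and animal controls (x axis), with a line joining the libraries of the same mouse and a symbol for each of the 3 mice. Nt5e and Penk are lower and Ecm1 is higher in the deficient cells of every mouse, while the lines of Entpd1 run in both directions.

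Around these enzymes, 24 of 33 listed genes of adenosine and ATP handling were measured, and 1 rose and 1 fell against each control. The gene that fell was Nt5e. The gene that rose was Acp5, which encodes tartrate-resistant acid phosphatase, an enzyme with substrates beyond nucleotides. Acp5 measured 492, 429 and 507 CPM in deficient libraries 142114, 232614 and 432614, against 205, 223 and 210 CPM in genetic controls 124, 8619 and 8800 and 220, 129 and 247 CPM in animal controls 142114, 232614 and 432614. Every deficient library lay above every control library, as for 8.44% of all genes against genetic and 7.85% against animal controls. The log2 fold change of Acp5 was 1.16 ± 0.22 (adjusted p = 0.0495) against genetic controls and 1.31 ± 0.22 (adjusted p = 0.0266) against animal controls. That call is close to the threshold: it held in 8 of 18 alternative settings against genetic controls (adjusted p up to 0.266) and in 11 of 18 against animal controls (adjusted p up to 0.173). The genes of this list had a median log2 fold change of -0.25 against genetic and -0.12 against animal controls, beside 0.04 over all genes in each comparison.

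Adora2a, the receptor through which adenosine acts on T cells, was named after its values were seen. It measured 10.1 ± 5.73 CPM in deficient cells, 46.8 ± 33.1 CPM in genetic controls and 41.6 ± 4.62 CPM in animal controls (SD, n = 3 each), with an adjusted p of 0.302 against genetic and 0.235 against animal controls. Ada, which encodes the deaminase that removes adenosine, averaged 10.9 ± 8.35 CPM in deficient cells, 11.4 ± 3.93 CPM in genetic controls and 15.8 ± 5.69 CPM in animal controls (SD, n = 3 each; adjusted p = 0.941 and 0.746), and it too was named after its values were seen.

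The cytokine genes were low and uneven. Il10 (chromosome 1, 131019845 to 131024974, plus strand), a cytokine that dampens macrophages and dendritic cells, was listed at the lowest value in all 3 deficient libraries. It was at that value in genetic controls 8619 and 8800 and in animal control 232614 as well, and measured 2.94 CPM in genetic control 124 and 3.76 and 3.52 CPM in animal controls 142114 and 432614. The groups thus shared values, and no fold is given because the deficient libraries stood at the lowest value. The adjusted p was 0.814 against genetic and 0.483 against animal controls.

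The 3 libraries with Il10 above the lowest value were also the 3 with the smallest share of genes at that value. That share was 8.0% in genetic control 124, 8.73% in animal control 142114 and 8.81% in animal control 432614. It ran from 8.92% to 11.4% in the other 6 libraries, including 10.01%, 11.3% and 11.4% in deficient libraries 142114, 232614 and 432614. A larger share goes with fewer detected genes, and its part in the low values of Il10 was not tested.

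Ebi3 (chromosome 17, 55952640 to 55957022, plus strand) measured 0.0120, 4.26 and 0.00457 CPM in deficient libraries 142114, 232614 and 432614. In the genetic controls it measured 15.5, 27.4 and 4.26 CPM in libraries 124, 8619 and 8800, and in the animal controls 21.5, 22.9 and 15.5 CPM in libraries 142114, 232614 and 432614. Every deficient library lay below every animal control library, while deficient library 232614 and genetic control 8800 had the same value. The first of those deficient values was the second lowest distinct value of its library, shared by 283 genes, and the third was the lowest, shared by 1555 genes.

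Ebi3 did not pass the test (adjusted p = 0.210 against genetic and 0.152 against animal controls; unadjusted p = 0.00659 and 0.00395). In the animal control comparison 8.10% of all genes had every deficient library below every control library. Without deficient library 232614, the highest of its group, Ebi3 was called against both controls (adjusted p = 0.00997 and 0.00605), so that library decides the call. Summed erythroid and platelet markers (6 of 12 measured) were 40.8 CPM in that library and 76.1 CPM in genetic control 8619, against 1.13 CPM or less in the other 7 libraries, and their part in the Ebi3 values was not tested. With a pseudocount of 1 CPM, which lessens the weight of the lowest values, the log2 difference was -2.95 against genetic and -3.56 against animal controls (adjusted p = 0.222 and 0.114). An annotated antisense gene, Gm16712, overlaps exons of Ebi3, and the sources used here do not say whether counting used strand, so reads of the pair may not be separated.

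**Figure D3:**
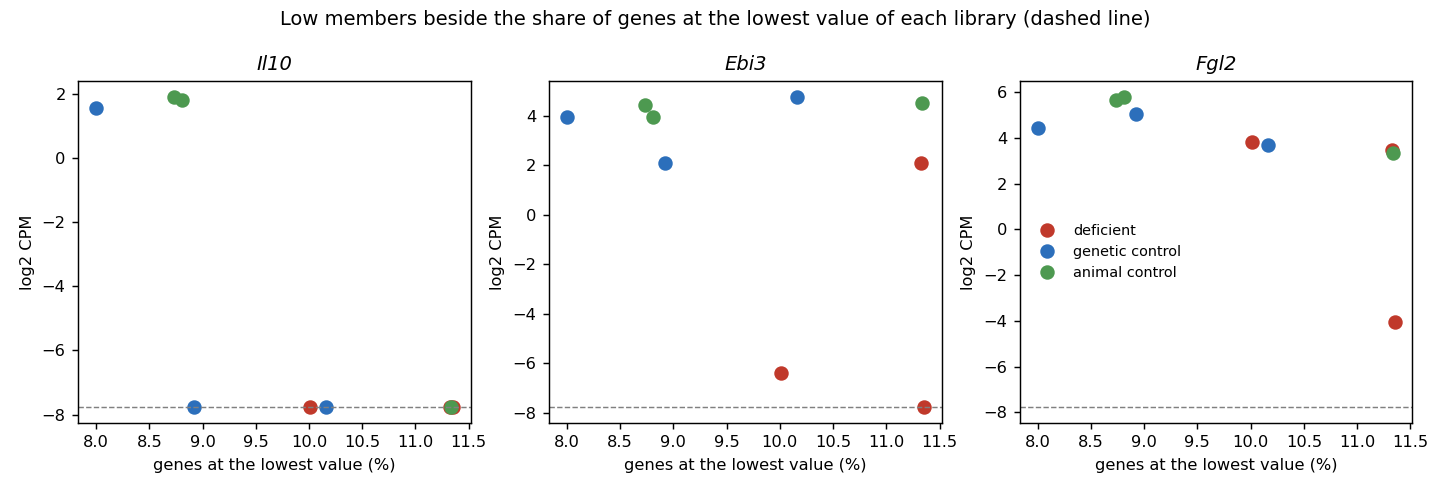
Log2 CPM (y axis) of Il10, Ebi3 and Fgl2 in each of the 9 libraries against the percentage of genes listed at the lowest value in that library (x axis), with the lowest value as a dashed line. Il10 is above the line only in the 3 libraries at 8.0% to 8.81%, and the 2 deficient libraries with Ebi3 near the line are at 10.01% and 11.4%.

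Of the wider IL-10 and IL-35 list, 23 of 27 genes were measured; Il12a, the partner of Ebi3 in IL-35, and Il27, its partner in IL-27, were not analysed here. Against genetic controls 0 rose and 0 fell by limma (0.869% of all genes were called), and against animal controls 0 rose and 2 fell (0.891% of all genes). At an unadjusted p under 0.05 there were 8 of 23 against genetic controls, beside 10.6% of all genes, and 11 of 23 against animal controls, beside 11.9%. The 2 that fell were Il6ra, the IL-6 receptor alpha chain, at 54.0, 67.9 and 39.8 CPM in deficient libraries against 145, 120 and 120 CPM in animal controls (-1.28 ± 0.24, adjusted p = 0.0406), and Tyk2, a kinase of several cytokine receptors including that of IL-10. Tyk2 measured 32.4, 37.0 and 46.2 CPM in deficient libraries against 86.8, 184 and 103 CPM in animal controls (-1.63 ± 0.30, adjusted p = 0.0414). Against the genetic controls they gave -1.21 ± 0.24 (adjusted p = 0.0548) and -1.41 ± 0.30 (adjusted p = 0.0788). Each of these animal control calls held in 6 of 18 alternative settings (adjusted p up to 0.142 for Il6ra and 0.137 for Tyk2), and neither held with the mouse as a fixed block (adjusted p = 0.0751 for Il6ra and 0.0666 for Tyk2).

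In that list 7 of 23 genes lay lower in every deficient library than in every genetic control library and 10 of 23 than in every animal control library, beside 7.28% and 8.10% of all genes; 1 of 23 lay higher in each comparison, beside 8.44% and 7.85%. The median log2 fold change was -1.21 and -1.28. Il10ra, which encodes the binding chain of the IL-10 receptor and was named after its values were seen, measured 36.7, 4.68 and 0.158 CPM in deficient libraries against 74.4, 120 and 38.6 CPM in genetic and 53.8, 82.1 and 160 CPM in animal controls (adjusted p = 0.302 and 0.240). Il10rb, its partner chain, also named after its values were seen, averaged 127 ± 12.1 CPM in deficient cells, 109 ± 0.818 CPM in genetic controls and 127 ± 24.9 CPM in animal controls (SD, n = 3 each; adjusted p = 0.793 and 0.995).

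Fgl2 (chromosome 5, 21372642 to 21378374, plus strand), a secreted prothrombinase-related protein that binds Fc receptors on antigen-presenting cells, measured 13.9, 10.9 and 0.0612 CPM in deficient libraries 142114, 232614 and 432614. It measured 21.6, 12.7 and 32.9 CPM in genetic controls 124, 8619 and 8800, and 50.5, 9.95 and 55.7 CPM in animal controls 142114, 232614 and 432614. The groups overlapped, and animal control 232614 stood apart from the others of its group. The value of deficient library 432614 was the third lowest distinct value of its library, shared by 136 genes. Fgl2 did not pass the test against genetic (adjusted p = 0.557) or animal controls (adjusted p = 0.436), and without deficient library 432614 its log2 difference was -0.75 and -1.30.

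Fgl2 values moved with the share of genes at the lowest value, as the plot of the low genes shows: the 4 libraries with the highest Fgl2, all controls, had shares of 8.0% to 8.92%, and the other 5 had 10.01% or more. The part of this in the Fgl2 differences was not tested. Fgl2 is also known from macrophages and dendritic cells, and 7 of 15 myeloid and dendritic markers were measured, summing to 25.6 to 92.5 CPM in deficient libraries, 21.8 to 393 CPM in genetic controls and 7.98 to 66.6 CPM in animal controls. The highest sum, in genetic control 8619, stood beside the lowest Fgl2 value of its group and the highest Ebi3 and Penk values of its group. Lyz2 gave the largest part of that sum (257 CPM), and Csf1r and Emr1, receptors of macrophages, were at 34.9 and 26.8 CPM. These genes, Tyrobp and Fcer1g had their highest value of all libraries there. The other measured markers did not: Cd68 was at 0.0839 CPM there and 14.6 CPM in deficient library 142114. Cybb was at 39.8 CPM there and 48.0 and 60.5 CPM in animal controls 142114 and 432614. The part of these markers in the Fgl2, Ebi3 and Penk values was not tested. Summed markers of B cells (7 of 10 measured) were 54.8 to 71.9 CPM in deficient libraries, 14.3 to 30.8 CPM in genetic controls and 62.2 to 106 CPM in animal controls. The largest part of each sum was Cd79b, at 45.0 to 67.1, 12.6 to 22.5 and 39.6 to 74.3 CPM in those groups. Against genetic controls 8.44% of all genes were, like Cd79b, wholly higher in deficient libraries. Cd79a overlapped there, at 2.18 to 7.79 CPM in deficient libraries and 1.13 to 10.4 CPM in genetic controls. Summed markers of plasma cells (5 of 8 measured, Irf4, Prdm1 and Xbp1 among them, which Treg cells also express) were 166 to 223 CPM in deficient libraries, 299 to 455 CPM in genetic and 242 to 431 CPM in animal controls. The part of the B cell and plasma cell markers was not tested either. Naive T cell markers (10 of 10 measured) summed to 5762 to 6286 CPM in deficient libraries, 5815 to 6428 CPM in genetic and 4626 to 5125 CPM in animal controls, so the deficient libraries lay above all animal controls. Pecam1, the 1 of 11 stromal and endothelial markers measured, which T cells also express, was 64.3 to 148 CPM in deficient libraries, 226 to 243 CPM in genetic and 167 to 220.1 CPM in animal controls, without overlap. Of all genes, 7.28% were wholly lower in deficient libraries against genetic and 8.10% against animal controls. In genetic over animal controls, 4.88% were wholly higher. The part of the naive T cell markers and of Pecam1 in the results was not tested.

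On the opposite strand, the annotated gene Ccdc146 overlaps exons of Fgl2, so reads of the pair may not be separated. Of the FGL2 receptor genes, Fcgr3 measured at most 0.167 CPM in deficient libraries, 1.38 CPM in genetic and 13.3 CPM in animal controls (adjusted p = 0.937 and 0.826); Fcgr2b was not analysed here.

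Penk (chromosome 4, 4133531 to 4138819, minus strand), the precursor of the opioid enkephalins, measured 13.1, 44.5 and 31.0 CPM in deficient libraries 142114, 232614 and 432614. It measured 43.8, 92.3 and 39.7 CPM in genetic controls 124, 8619 and 8800, and 64.7, 82.8 and 94.9 CPM in animal controls 142114, 232614 and 432614. The deficient libraries lay below all animal controls and overlapped the genetic controls. Penk did not pass the test against genetic controls (-1.05 ± 0.49, 95% interval -2.14 to 0.05, adjusted p = 0.493) or animal controls (-1.60 ± 0.49, 95% interval -2.70 to -0.51, adjusted p = 0.216). Within mice 142114, 232614 and 432614 the log2 differences of deficient from animal control cells were -2.30, -0.89 and -1.61, and with the mouse as a block the adjusted p against animal controls was 0.207. The mean levels ran from deficient cells (29.6 ± 15.7 CPM) through genetic controls (58.6 ± 29.3 CPM) to animal controls (80.8 ± 15.2 CPM; SD, n = 3 each), and no neighbouring groups in that order differed by the test. An annotated transcript on the opposite strand, A830012C17Rik, overlaps exons of Penk.

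Of 17 listed genes of enkephalin processing, receptors and breakdown, 9 were measured, and 0 rose and 0 fell against either control by limma, with 3 of 9 at an unadjusted p under 0.05 against genetic controls (10.6% of all genes) and 6 of 9 against animal controls (11.9%). In this list 3 of 9 lay lower in every deficient library than in every genetic control, beside 7.28% of all genes, and 4 of 9 than in every animal control, beside 8.10%. Wholly higher were 1 of 9 against genetic controls, beside 8.44%, and 2 of 9 against animal controls, beside 7.85%. Furin, a protease that cuts precursor proteins and has the lowest p of the list, measured 28.1, 29.6 and 8.66 CPM in deficient libraries, against 74.3, 85.9 and 117 CPM in genetic and 152, 94.6 and 81.7 CPM in animal controls. The deficient libraries were all lower than any control, yet Furin missed the threshold (-2.23 ± 0.48, adjusted p = 0.0811 and -2.45 ± 0.48, adjusted p = 0.0529). Against animal controls it was called in 3 of 18 alternative settings, with the mouse as a fixed block (adjusted p = 0.0389), as a random block (0.0429) and with a pseudocount of 1 CPM (0.0401); the highest adjusted p was 0.196. Cpe, a carboxypeptidase that trims such precursors and was named after its values were seen, averaged 0.0185 ± 0.0120 CPM in deficient cells, 6.31 ± 5.09 CPM in genetic controls and 11.6 ± 10.7 CPM in animal controls (SD, n = 3 each; adjusted p = 0.223 and 0.212).

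Ecm1, a secreted glycoprotein described in mouse helper T cells leaving lymph nodes, went the opposite way to Nt5e. It measured 860.2, 782 and 793 CPM in deficient libraries 142114, 232614 and 432614, against 537, 448 and 370.0 CPM in genetic controls 124, 8619 and 8800 and 445, 396 and 381 CPM in animal controls 142114, 232614 and 432614. The lowest deficient library lay above the highest control library. Ecm1 rose by 0.86 ± 0.14 on the log2 scale against genetic controls (adjusted p = 0.0240, fold change 1.82) and by 0.997 ± 0.139 against animal controls (adjusted p = 0.0102, fold change 1.995), and ranked 64 and 47 of 13698 genes by p. The control groups did not differ beyond their spread (genetic over animal controls 0.14 ± 0.14, adjusted p = 0.928), with mean levels of 812 ± 42.5 CPM in deficient cells, 452 ± 83.7 CPM in genetic and 407 ± 33.4 CPM in animal controls (SD, n = 3 each).

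The Ecm1 difference was even across mice, at 0.95, 0.98 and 1.06 on the log2 scale in mice 142114, 232614 and 432614, but its call was less firm than its size. Against animal controls it held in 15 of 18 alternative settings and was lost without animal control 432614 (adjusted p = 0.0524), without trend (0.191) and without genetic control 8619 and animal control 232614 together (0.0934). Against genetic controls it held in 9 of 18. There it was lost without deficient libraries 142114, 232614 or 432614 (adjusted p = 0.0866, 0.0728 and 0.0763), without genetic controls 8619 or 8800 (0.0866 and 0.0661), with the mouse as a fixed block (0.0680) but not as a random block, on the 6 compared libraries alone (0.0958), without trend (0.301) and without genetic control 8619 and animal control 232614 together (0.151). Across all 18 settings its log2 difference stayed between 0.73 and 0.99 against genetic and between 0.95 and 1.06 against animal controls.

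**Figure D4:**
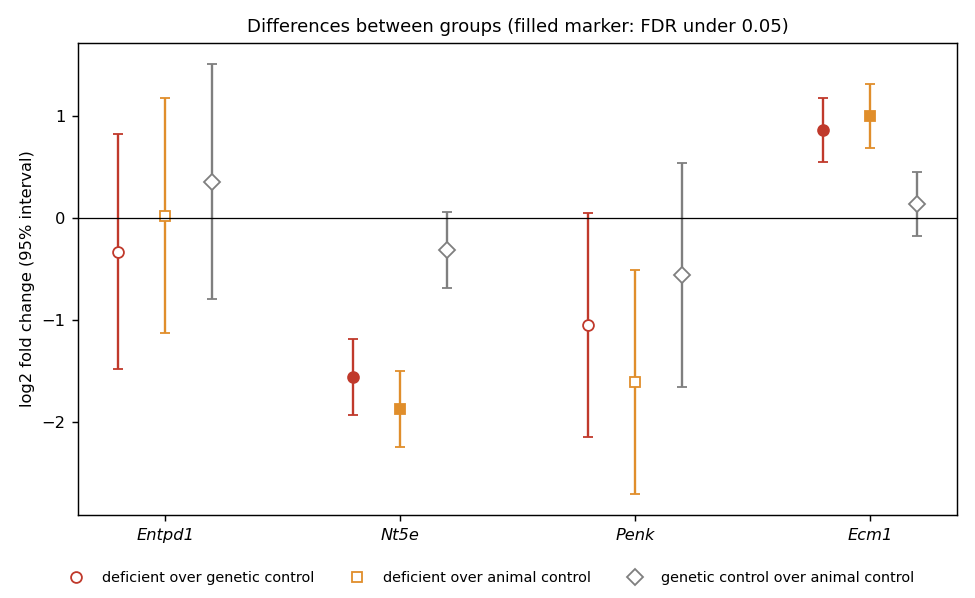
Log2 fold change (y axis) with its 95% interval for the 4 genes above 10 CPM in every library (x axis), for deficient over genetic control, deficient over animal control and genetic over animal control, filled where the adjusted p is under 0.05. Nt5e lies below 0 (-1.56 and -1.87) and Ecm1 above 0 (0.86 and 0.997) in both comparisons of deficient cells, and every interval between the controls spans 0.

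Set side by side, the deficient cells gave 1 called gene higher and 1 lower of 7 against each control. The median log2 fold change was -1.56 and -1.87, beside 0.04 over all genes in each comparison. That median is the value of Nt5e itself. The members below it were Il10, Ebi3 and Fgl2. Il10 and Ebi3 rest on values near the lowest of the table, and Fgl2 on 1 such value, in deficient library 432614. The median thus does not show a fall of the 7 genes as a set. At an unadjusted p under 0.05 there were 3 of 7 against genetic controls, beside 10.6% of all genes, and 4 of 7 against animal controls, beside 11.9%. Libraries of the groups did not overlap for 2 of 7 against genetic controls, beside 15.7% of all genes, and for 4 of 7 against animal controls, beside 15.9%. Both comparisons use the same deficient libraries, so they are not independent. Of all genes, 0.175% were higher and 0.402% lower against both controls. Between genetic and animal controls 0 of the 7 genes were called by limma, 0 had an unadjusted p under 0.05 and 0 had groups that did not overlap, beside 0.0365%, 6.62% and 10.4% (4.88% higher, 5.57% lower) of all genes. Levels of different genes were set side by side per kilobase of merged annotated exons. That scale is rough, since the transcripts expressed and the counting method are not known. Group means of deficient cells were highest for Ecm1 (322 CPM per kilobase, SD 16.9). Penk (18.1, SD 9.64), Nt5e (13.6, SD 1.41), Entpd1 (6.89, SD 2.81) and Fgl2 (2.20, SD 1.93) followed, so the order of Penk and Nt5e is not firm. Ebi3 (1.24) rested on 1 deficient library, and Il10, at the lowest value in all 3, was not ranked. In genetic controls the same scale gave 179 for Ecm1, 40.3 for Nt5e, 35.9 for Penk, 13.6 for Ebi3, 8.24 for Entpd1 and 5.91 for Fgl2. In animal controls it gave 162 for Ecm1, 49.9 for Nt5e, 49.4 for Penk, 17.3 for Ebi3, 10.2 for Fgl2 and 7.32 for Entpd1, so that Fgl2 and Entpd1 stood in the opposite order there, with SDs of 6.61 and 3.99.

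Among other suppressive mediators of Treg cells the called genes were all lower in deficient cells: of 30 measured genes of 35 listed, 0 rose and 4 fell against genetic controls, beside 0.336% higher and 0.533% lower of all genes, and 0 rose and 7 fell against animal controls, beside 0.307% and 0.584%. The 4 that fell against both were Nrp1, a semaphorin co-receptor of thymus-derived Treg cells, Lgals1, which encodes galectin-1, Pdcd1, which encodes PD-1, and Tigit, an inhibitory receptor. Nrp1 averaged 78.4 ± 27.9 CPM in deficient cells, 398 ± 26.7 CPM in genetic and 744 ± 157 CPM in animal controls, and Lgals1 averaged 32.8 ± 3.71 CPM in deficient cells, 142 ± 33.3 CPM in genetic and 149 ± 25.9 CPM in animal controls (SD, n = 3 each). The calls of Tigit and Pdcd1 against genetic controls held in 3 and 9 of 18 alternative settings, and those of Nrp1 and Lgals1 in 16 each. With the mouse as a fixed block the adjusted p against genetic controls was 0.0943 for Tigit and 0.0552 for Pdcd1. Tigit measured 0.0566, 0.347 and 0.400 CPM in deficient libraries 142114, 232614 and 432614, so its fold changes depend on low values. A pseudocount of 1 CPM moved its log2 difference from -5.67 to -3.18 against genetic controls (limma adjusted p = 0.0861). Against animal controls the difference moved from -7.27 to -4.65 (limma adjusted p = 0.0140). Tgfb1, the TGF-beta 1 gene, and Ctla4, the inhibitory receptor CTLA-4, were named after their values were seen. Tgfb1 averaged 113 ± 18.6 CPM in deficient cells, 109 ± 13.5 CPM in genetic and 147 ± 30.8 CPM in animal controls (adjusted p = 0.985 and 0.568). Ctla4 averaged 55.7 ± 10.99 CPM in deficient cells, 52.7 ± 4.08 CPM in genetic and 45.5 ± 11.3 CPM in animal controls (SD, n = 3 each; adjusted p = 0.985 and 0.769).

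**Figure D5:**
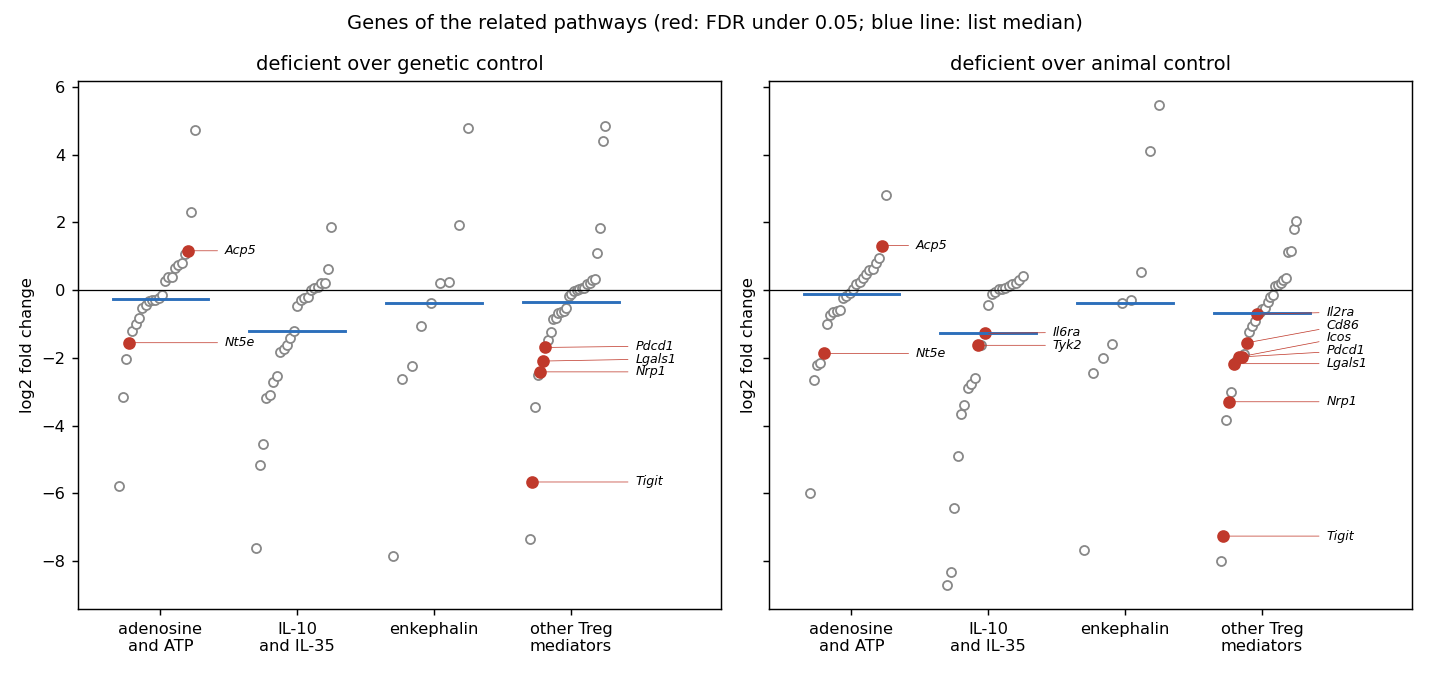
Log2 fold change (y axis) of each measured gene of 4 lists (x axis) in deficient cells over genetic controls (left) and over animal controls (right), with called genes in red and the list median as a blue line; fold changes of genes near the lowest value depend on that value. Nt5e is below and Acp5 above 0 in both panels, and the called genes among the other Treg mediators are all below 0.

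The genes whose log2 values followed each member most closely over the 9 libraries were sought among 7283 named genes whose mean reached 10 CPM, by Pearson correlation and with no test, since the groups themselves shape such values. For Nt5e they were Fxyd5 (r = 0.976), a regulator of the sodium pump, and Smpdl3a (r = 0.974), a phosphodiesterase. Smpdl3a averaged 114 ± 25.3 CPM in deficient cells, 355 ± 52.1 CPM in genetic and 420.2 ± 71.5 CPM in animal controls (SD, n = 3 each) and, like Fxyd5, was called lower in both comparisons. For Ecm1 they were Pik3cd (r = 0.963), the delta catalytic chain of PI3 kinase, and Lsp1 (r = 0.954), an actin-binding protein of leukocytes. Neither was called (adjusted p = 0.115 and 0.154 against genetic controls, 0.114 and 0.0819 against animal controls). For Penk they were Slc9a9 (r = 0.956) and Cep57 (r = 0.954), for Entpd1 Ccm2 (r = 0.932) and Ralgds (r = 0.928), and for Fgl2 Plekha1 (r = 0.977) and Mum1 (r = 0.966). Il10 and Ebi3 were below that mean and were not searched.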

How the data were processed

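RNA-seq of sorted mouse Treg cells gave 9 libraries in 3 groups. Per the submitters' processing notes, bcl2fastq 1.8.4, STAR 2.4.0h, mm10 and limma were used, without stated roles; the sources used here name no counting tool, annotation or gene filter. The deposited values are log2 CPM, read as quantile-normalized by the authors because all 9 columns share the lowest (-7.77) and highest (13.42) value and their linear values sum to between 999252 and 999256. Of 13702 rows, 4 exact duplicates were dropped. Depth is unknown.

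No pseudocount or filter was applied. limma-trend (limma 3.58.1, R 4.3.3) fitted the 3 group means over all 9 libraries (6 residual degrees of freedom), two-sided, with Benjamini-Hochberg adjustment across the table and an FDR of 0.05, and was tested on simulated data. Coordinates come from GENCODE M21 (GRCm38); promoters, found for 5 of the 7 genes, from RefSeq GRCm38.p6. The members and lists were chosen with earlier results of these data known. Named genes were the members, Zbtb7b, Zbtb7a, Foxp3, up to 4 called genes per list and comparison or else the lowest in p, and the 2 most correlated genes per member; the text says where others were added. NK cell markers (5 of 9 measured) summed to 10.3 to 21.3 CPM in deficient, 5.81 to 38.7 CPM in genetic control and 5.26 to 18.4 CPM in animal control libraries.

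Deficient cells and animal controls of the same number come from the same mouse, per the labels. After group means were removed, same-mouse libraries correlated at 0.0483, 0.0202 and 0.0170 over 7550 genes, against -0.0304 to 0.00803 for other pairs. Alternatives were a filter at 1 CPM, a pseudocount of 1 CPM, no trend, robust estimation, the 6 compared libraries alone, median centring, leaving out each library, leaving out genetic control 8619 and animal control 232614 together, and the mouse as a fixed or random block.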

Additional observations from a re-analysis of the deposited data

How the results depend on the processing

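Nt5e and Ecm1 kept their direction against both controls in all 18 alternatives; among the other members, the Entpd1 difference from animal controls changed sign without deficient libraries 232614 or 432614 or animal control 142114, and Il10 did not differ from genetic controls without genetic control 124. Of 7 members, 2 were called against each control. Against genetic controls the count was 0 without trend and 1 on the 6 compared libraries, without genetic control 8619 and animal control 232614 together, and with the mouse as a fixed replicate block, and 1 to 2 without a single library. Against animal controls it was 1 without trend and 1 without those 2 libraries together, 2 with the replicate block, and 1 to 3 without a single library. The mouse as a random block changed no member call. Over all genes, 119 were called against genetic controls: 22 on the 6 libraries, 21 without those 2 libraries together, 53 with the fixed replicate block, and 48 to 93 without a single library. Against animal controls 122 were called: 52 on the 6 libraries, 27 without those 2 libraries together, 90 and 148 with the mouse as a fixed and random block, and 58 to 115 without a single library. Between the controls 5 were called: 32 without trend, 3 on the 6 libraries, 1 without those 2 libraries together, and 4 to 10 without a single library. The cause of these shifts was not tested, beyond the fewer libraries of some settings. Without a single library the group left with 2 is assumed to vary like the others. Il10 gave no value under the 1 CPM filter. Il10 and Ebi3 rest on values near the lowest of the table, where depth, which is unknown, limits detection. Fgl2 does so only in deficient library 432614 (0.0612 CPM), with 9.95 to 55.7 CPM in the other libraries.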
